A study of Homo sapiens with 8 samples.

Results

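Epithelial cells hold to each other through adherens junctions, tight junctions and desmosomes, and 10 genes of these junctions are described here in A549 cells, an established human lung adenocarcinoma line. They were chosen by name, as the rows of the deposited count table whose Ensembl identifiers carry the symbols CDH1, CDH2, CTNNA1, CTNNB1, CTNND1, JUP, DSP, TJP1, F11R and CLDN1 in GENCODE 44, and they are 10 of its 58302 genes. The first 5 were grouped as adherens junction genes and the other 5 as genes of the desmosome (JUP, DSP) and tight junction (TJP1, F11R, CLDN1). RNA was sequenced from 4 libraries labelled siCTRL, from cells transiently transfected with a scramble control siRNA, and 4 labelled siAPEX1, from cells transfected with an siRNA against APEX1, the gene of the DNA repair endonuclease APE1. No further treatment is given for either group, and the cells were collected some days after transfection. The study calls its replicates biological, but the labels do not say whether the libraries came from separate cultures, so each p-value measures the spread between these libraries, part of which may be technical. The sequencing was designed to find microRNAs that depend on APE1, and it used a small RNA kit modified to keep longer transcripts too.

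APEX1 itself had 47 to 64 counts in the libraries labelled siCTRL and 19470 to 27916 in those labelled siAPEX1. Read as APEX1 mRNA, this goes against the label of a silencing siRNA. With a small RNA kit, counts per gene cannot tell reads of the transfected siRNA from reads of APEX1 mRNA. What these reads came from was not tested. The study checked the silencing by Western blot, which is not analysed here. Every direction given is therefore that of the libraries as labelled. Library totals ran from 1348386 to 1949886 counted reads, each siAPEX1 library being smaller than each siCTRL library, and the 10 junction genes together took only 301 to 524 of them, or 0.0218 to 0.0287% of a library. A549 cells are of epithelial origin, and the cytokeratins KRT7, KRT8, KRT18 and KRT19 were counted in all 8 libraries, while the alveolar markers SFTPC, SFTPB, NAPSA and NKX2-1 had at most 2 counts in all 8 libraries together. Of 13 markers of fibroblasts, smooth muscle, endothelium and leukocytes, 10 had at most 3 counts in every library, LUM, PECAM1, CDH5 and CD3E had 0 in all 8, and the 13 summed to 5.53 to 13.8 CPM in siCTRL and 7.21 to 11.4 CPM in siAPEX1 libraries. CPM relates the count of a gene to the reads of its library that fell on genes with enough counts to be tested. Here that sum was first multiplied by the library's TMM factor, a correction for differences in composition between libraries.

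In an adherens junction the extracellular parts of a classical cadherin bind the same cadherin on the neighbouring cell. Inside the cell, β-catenin or plakoglobin sits on the distal part of the cadherin tail, p120-catenin sits nearer the membrane and keeps the cadherin at the surface, and α-catenin links the complex to actin. Desmosomes use desmosomal cadherins, plakoglobin and desmoplakin to reach the keratin filaments, and tight junctions seal the space between cells with claudins and junctional adhesion molecules tied to scaffold proteins such as ZO-1. E-cadherin is the main cadherin of epithelia, N-cadherin is typical of mesenchymal and neural cells, and an exchange of the first for the second is a textbook mark of the epithelial to mesenchymal transition (EMT).

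CDH1, the gene of E-cadherin, is the member whose values turn on this comparison, so the study's own qPCR primers for it are shown to place that separate assay on the gene. CDH1 (ENSG00000039068) lies on the plus strand at chr16:68737292-68835537 of GRCh38, and both primers match 5 of its annotated transcripts and no transcript of another gene. In the canonical transcript of CDH1 both lie in the coding sequence. The forward primer crosses from exon 8 (chr16:68812255-68812263) into exon 9 (chr16:68813313-68813322), with the bases of exon 9 in capitals, and the reverse primer, written 5′ to 3′ on the minus strand, lies within exon 9 (chr16:68813379-68813397).
CDH1 forward: cccaccacgTACAAGGGTC
CDH1 reverse: ctggggtattgggggcatc
The product spans 94 bases of the spliced transcript, out of 16 exons in the canonical transcript, whereas the counts used here take reads over the whole gene.

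E-cadherin RNA was the only member that passed the test: CDH1 rose 1.89-fold in the libraries labelled siAPEX1, while N-cadherin, the 3 catenins, plakoglobin, desmoplakin, ZO-1 and claudin-1 did not pass it in either direction. Passing the test means a Benjamini-Hochberg adjusted p of at most 0.05 in edgeR's quasi-likelihood test over the 5368 genes with enough counts, and 9 of the 10 members were among these. One higher member of 9 stood against 15.9% of all genes tested that were higher, and 0 lower members against 15.8% lower. The 10 members are protein-coding, and of the 4857 nuclear protein-coding genes tested 12.4% were higher and 15.9% lower. At an unadjusted p of at most 0.05 the counts were likewise 1 higher and 0 lower, and DESeq2 also gave 1 and 0. No member was past both thresholds, which add a log2 fold change of at least 1 in size and which 9.28% of all genes passed, 3.6% as higher and 5.68% as lower. Scaling by library size alone turned the split of all calls from 856 higher and 847 lower to 340 higher and 1945 lower, moved the median change over all genes from 0 to -0.34 on the log2 scale, and made 3 members lower (CTNND1, DSP and TJP1).

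**Figure D1:**
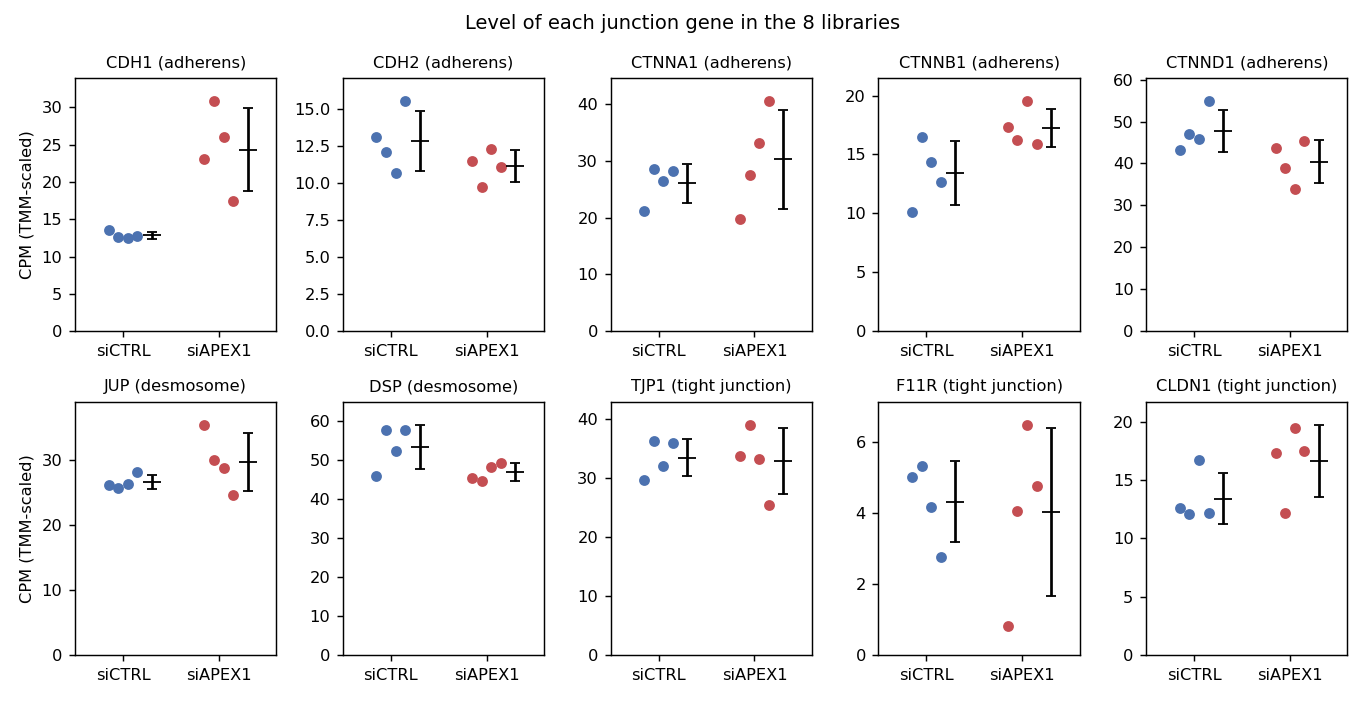
CPM of each junction gene (vertical axis, TMM-scaled, starting at 0) in the 4 siCTRL (blue) and 4 siAPEX1 (red) libraries. Points are libraries 1 to 4 from left to right, and the bar beside them is the mean with its SD; only for CDH1 do all red points sit above all blue points, 17.5 to 30.8 against 12.5 to 13.6 CPM.

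CDH1 had 27, 26, 27 and 23 counts in siCTRL libraries 1 to 4 and 28, 38, 36 and 22 in siAPEX1 libraries 1 to 4. On the CPM scale these were 13.6, 12.6, 12.5 and 12.7 against 23.1, 30.8, 26 and 17.5, so the groups did not overlap, with siAPEX1 library 4 nearest to the controls. Groups that do not overlap, with siAPEX1 higher, were found for 14% of all genes tested. The mean was 12.9 ± 0.491 CPM (SD, n = 4) in siCTRL and 24.3 ± 5.59 CPM (SD, n = 4) in siAPEX1 libraries, a log2 fold change of 0.92 (SE 0.194, edgeR adjusted p = 0.000245). The 95% interval of the fold ran from 1.44 to 2.48, and the log2 fold change lay at percentile 95.5 of all genes tested. In bulk RNA, more cells expressing a gene and more RNA per cell cannot be told apart.

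The size of the CDH1 difference depended on the scaling more than its call did. As CPM without a TMM factor, CDH1 lay between 13.6 and 15.06 in the siCTRL libraries and at 20.8, 26.6, 22.2 and 15.1 in the siAPEX1 libraries, so that siAPEX1 library 4 nearly met siCTRL library 1. Over 17 alternatives the log2 fold change of CDH1 ranged from 0.58 with library size alone (adjusted p = 0.0146) to 1.07 without siAPEX1 library 4, and it passed the test in each of them. Relative to the median of all genes, it was 0.92 with and without TMM factors. These factors scale all genes of a library alike, so the equal values are no separate check. The antisense gene ENSG00000260798, which covers 5.71% of the exon bases of CDH1, had 0 counts in all 8 libraries. Whether CDH1 lost reads over those bases cannot be told from that count.

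CDH2, the gene of N-cadherin (ENSG00000170558, chr18:27932879-28177946, minus strand), had about the CPM of CDH1 in the control libraries, though less per kb of exon, and did not pass the test. Its counts were 26, 25, 23 and 28 in siCTRL and 14, 12, 17 and 14 in siAPEX1 libraries, or 12.8 ± 2.03 and 11.2 ± 1.06 CPM (SD, n = 4 each). The groups overlapped on the CPM scale, and the log2 fold change was -0.18 (SE 0.229, adjusted p = 0.597), with an interval from -0.65 to 0.28. CDH1 made up 50.9, 51, 54 and 45.1% of the summed CPM of both cadherins in siCTRL libraries 1 to 4 and 66.7, 76, 67.9 and 61.1% in siAPEX1 libraries 1 to 4. This share, which no scaling between libraries can change, was higher in each siAPEX1 library than in any siCTRL library, and it was not tested.

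**Figure D2:**
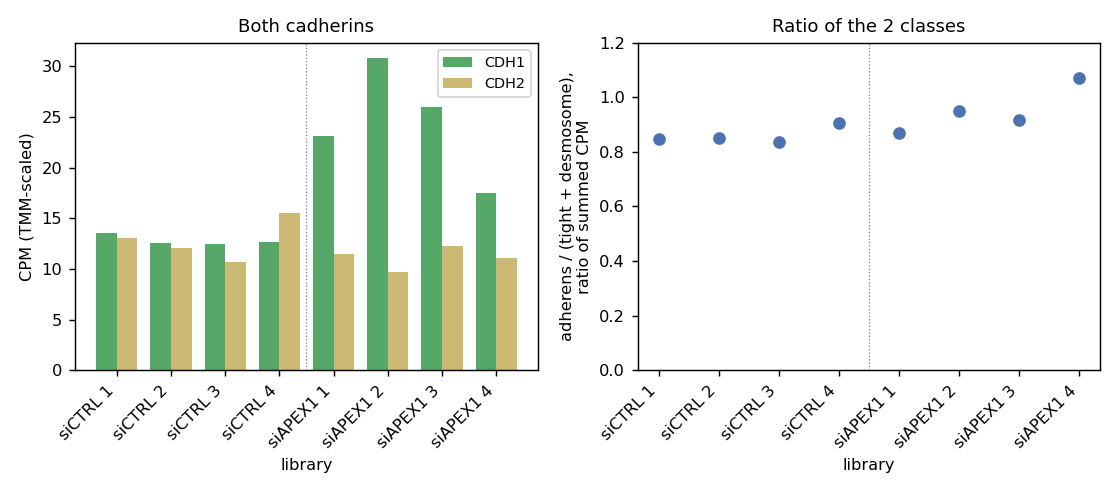
Left, CPM of CDH1 (green bars) and CDH2 (yellow bars) in each of the 8 libraries; right, the summed CPM of the 5 adherens junction genes divided by that of the 5 tight junction and desmosome genes, 1 point per library. CDH1 and CDH2 bars are of similar height in siCTRL libraries and CDH1 stands above CDH2 in every siAPEX1 library, whereas the class ratio runs from 0.835 to 0.907 in siCTRL and from 0.87 to 1.07 in siAPEX1 libraries.

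The catenins that bind the cadherin tail and link it to actin did not pass the test, and their values pointed to no common direction. CTNNA1 encodes α-catenin, the actin link (ENSG00000044115, chr5:138610967-138935034, plus strand). It had 21.1, 28.6, 26.4 and 28.2 CPM in siCTRL and 19.8, 27.6, 33.2 and 40.5 CPM in siAPEX1 libraries, from counts of 24 to 59. The siAPEX1 libraries reached both below and above the controls, and the log2 fold change was 0.22 (SE 0.171, adjusted p = 0.349), with an interval from -0.12 to 0.57.

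CTNNB1 encodes β-catenin, which also acts with TCF/LEF factors in Wnt signalling (ENSG00000168036, chr3:41194741-41260096, plus strand). Its 10.1, 16.5, 14.4 and 12.7 CPM in siCTRL libraries stood against 17.3, 16.2, 19.5 and 15.9 CPM in siAPEX1 libraries. Only siCTRL library 2 reached into the range of the siAPEX1 libraries, yet with 20 to 34 counts per library the log2 fold change of 0.36 (SE 0.207) had an interval from -0.06 to 0.78 and an adjusted p of 0.195. A 1.44-fold rise, the lower bound for CDH1, lies within that interval, as does no change.

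CTNND1 encodes p120-catenin (ENSG00000198561, chr11:57753243-57819546, plus strand) and was the adherens member with the most counts, 86 to 99 in siCTRL and 47 to 57 in siAPEX1 libraries. Its levels were 43.2, 47, 45.9 and 54.8 CPM against 43.6, 39, 33.9 and 45.3 CPM, and the groups overlapped. CTNND1 did not pass, its log2 fold change being -0.24 (SE 0.132, interval from -0.51 to 0.03, adjusted p = 0.171). It did pass as lower with library size alone (-0.58, adjusted p = 0.000419) and when only genes reaching 10 counts in each library were tested (-0.33, adjusted p = 0.0474). Another annotated gene, ENSG00000254732, shares 12.7% of the exon bases of CTNND1 on the same strand and had 2 counts in all, and a gene model sharing 39.1%, ENSG00000288534, has no row in the table used here. Where exons are shared, a read may be counted for neither gene, so whether CTNND1 lost reads there is not known.

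The desmosomal members were among the most strongly counted of the 10. JUP encodes plakoglobin, a close relative of β-catenin that serves adherens junctions and desmosomes alike (ENSG00000173801, chr17:41754604-41786931, minus strand). It stood at 26.1, 25.7, 26.4 and 28.2 CPM in siCTRL and 35.4, 30, 28.8 and 24.6 CPM in siAPEX1 libraries, and siAPEX1 library 4 was below all controls while the other 3 were above them. The log2 fold change was 0.16 (SE 0.154, adjusted p = 0.474), with an interval from -0.15 to 0.47.

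DSP, the gene of desmoplakin, anchors keratin filaments to the desmosome (ENSG00000096696, chr6:7541338-7586714, plus strand). It had 45.8, 57.6, 52.4 and 57.6 CPM in siCTRL and 45.3, 44.6, 48.3 and 49.2 CPM in siAPEX1 libraries, overlapping through siCTRL library 1. Its log2 fold change was -0.18 (SE 0.124, interval from -0.43 to 0.07, adjusted p = 0.278), and the interval excludes a rise of the size of the lower bound for CDH1. With library size alone DSP passed as lower, at -0.52 with an adjusted p of 0.000644.

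Of the tight junction members, TJP1 and CLDN1 did not pass the test either, and F11R was not in the fit. TJP1 encodes the scaffold ZO-1 (ENSG00000104067, chr15:29699367-29968915, minus strand). With 29.7, 36.3, 32 and 36 CPM against 33.8, 39, 33.2 and 25.4 CPM, its log2 fold change was -0.03 (SE 0.148, interval from -0.33 to 0.27, adjusted p = 0.911), and the sign of so small a value changed under 4 alternatives. Library size alone put TJP1 at -0.37, where it passed as lower (adjusted p = 0.0418).

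CLDN1 encodes the sealing protein claudin-1 (ENSG00000163347, chr3:190305707-190322446, minus strand). It had 12.6, 12.1, 16.7 and 12.2 CPM in siCTRL and 17.3, 12.2, 19.5 and 17.5 CPM in siAPEX1 libraries. The groups overlapped through siAPEX1 library 2, which lay within the range of the controls, while siCTRL library 3 was the highest control. The log2 fold change was 0.31 (SE 0.21, interval from -0.12 to 0.73, adjusted p = 0.281).

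F11R, the gene of the junctional adhesion molecule JAM-A (ENSG00000158769, chr1:160995211-161021343, minus strand), was too low for the fit. It had 10, 11, 9 and 5 counts in siCTRL and 1, 5, 9 and 6 in siAPEX1 libraries, or 5.03, 5.33, 4.17 and 2.77 CPM against 0.823, 4.06, 6.49 and 4.77 CPM. The ranges overlapped widely, and a two-sided exact permutation test over the 70 labelings of the libraries, whose smallest possible p is 0.0286, gave p = 0.83 for the CPM. The gene model ENSG00000270149 shares 36.6% of the exon bases of F11R on the same strand and had 0 counts in all 8 libraries. Reads over shared bases may be counted for neither gene, so this does not show that F11R kept its reads there.

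**Figure D3:**
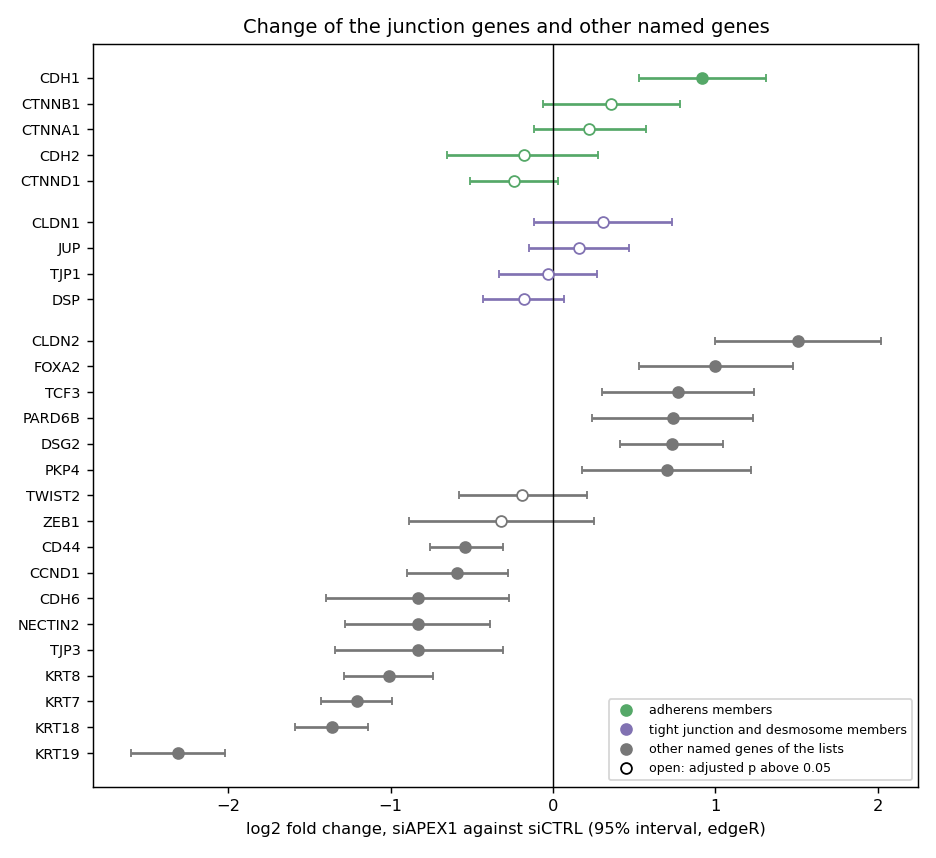
Log2 fold change of siAPEX1 against siCTRL libraries (horizontal axis) with its 95% interval from edgeR, for the 9 members tested (green and purple) and the other named genes of the junction, EMT and marker lists (grey). Filled points passed the test; CDH1 at 0.92 is the only filled point among the members, and the grey genes lie from -2.31 (KRT19) to 1.51 (CLDN2).

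Set side by side, the adherens junction genes had a median log2 fold change of 0.22 and the tight junction and desmosome genes tested 0.07, while the median of all genes was 0. Individual values ran from -0.24 to 0.92 in the first class and from -0.18 to 0.31 in the second, so CDH1 (0.92) and CTNNB1 (0.36) lay above the range of the second class and CTNND1 (-0.24) below it. Without siAPEX1 library 4 the order of the class medians turned, to 0.08 for the adherens junction genes and 0.18 for the others. Summed over the class, the adherens genes gave 101, 117, 110 and 124 CPM in siCTRL and 115, 123, 125 and 130 CPM in siAPEX1 libraries. Without CDH1 the same sums were 87.5 to 111 CPM and 92.2 to 113 CPM, ranges that nearly coincide. The tight junction and desmosome genes summed to 119 to 137 CPM and 122 to 136 CPM. CDH1 contributed 10.3 to 13.4% of the adherens sum in siCTRL and 13.4 to 25% in siAPEX1 libraries. Whether CDH1 differed in its change from any other member, and whether the classes differed from each other, was not tested. With JUP counted among the adherens genes instead, the median of the second class was -0.03.

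Levels of different genes were compared per kb of exon, since longer genes collect more reads. The length joined all exons annotated for a gene, 6.08 kb for CDH1, 11.76 kb for CTNNB1 and 15.21 kb for CTNND1. It can exceed the length of the transcripts present, so the order below depends on this choice. By CPM alone CTNNB1, at 13.4 in the siCTRL libraries, was not below CDH1 at 12.9. In the siCTRL libraries JUP was highest at 5.39 ± 0.226 CPM per kb (SD, n = 4), followed by DSP at 3.92, CLDN1 at 3.69, CTNND1 at 3.14, TJP1 at 2.96 and CTNNA1 at 2.95. CDH1 came after these at 2.12 ± 0.0808, and CDH2 at 1.5, CTNNB1 at 1.14 and F11R at 0.854 closed the order. Neighbours in this order overlapped except JUP with DSP, CTNNA1 with CDH1 and CDH1 with CDH2. In the siAPEX1 libraries JUP at 6.01 ± 0.899 and CLDN1 at 4.58 ± 0.857 CPM per kb preceded CDH1 at 4 ± 0.92, which stood 3rd where it had stood 7th. DSP at 3.44, CTNNA1 at 3.43, TJP1 at 2.9 and CTNND1 at 2.66 followed, and CTNNB1 at 1.46, CDH2 at 1.3 and F11R at 0.797 were lowest. Only CTNND1 and CTNNB1 were neighbours without overlap there. The libraries of CDH1, from 2.88 to 5.08 CPM per kb, overlapped those of JUP, CLDN1, DSP, CTNNA1, TJP1 and CTNND1. The place of CDH1 among these genes was therefore not resolved.

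**Figure D4:**
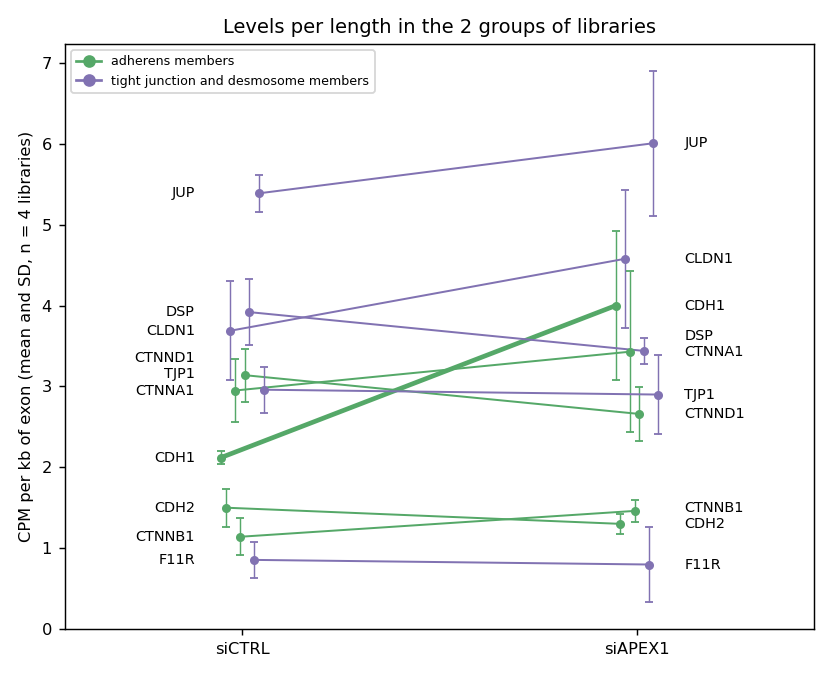
CPM per kb of exon (vertical axis, mean with SD, n = 4 libraries) of the 10 genes in siCTRL (left) and siAPEX1 (right) libraries, with lines joining each gene. The thick green line of CDH1 climbs from a mean of 2.12 to 4 and passes CTNNA1, TJP1, CTNND1 and DSP, whose means stay between 2.66 and 3.92. The siAPEX1 libraries of CDH1 overlap those of each of these genes.

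The wider junction lists held few genes with enough counts, and those that passed did so in both directions. Of 21 further adherens junction genes 9 were tested, of which 1 was higher and 2 lower, with a median log2 fold change of -0.22. Over all genes tested 15.9% were higher and 15.8% lower. PKP4, the gene of the p120-related plakophilin-4, rose by 0.70 on the log2 scale (SE 0.258, adjusted p = 0.0341), from 7.04 ± 1.25 CPM to 11.3 CPM. The immunoglobulin-like adhesion gene NECTIN2 had a log2 fold change of -0.83 (SE 0.22, adjusted p = 0.0029), and the classical cadherin CDH6 one of -0.83 (SE 0.281, adjusted p = 0.02). DESeq2 called none of these 3, with adjusted p of 0.288, 0.0545 and 0.183. PKP4 lost its call in 5 of the fits that left out 1 library, namely without siCTRL 1 (adjusted p = 0.0782), siCTRL 2 (0.0634), siCTRL 3 (0.0717), siAPEX1 3 (0.102) or siAPEX1 4 (0.052). It also lost it with library size alone (adjusted p = 0.278), without a filter (0.204) and with only genes that reached 10 counts in each library (0.0571). CDH6 lost it without siAPEX1 library 3 (-0.64, adjusted p = 0.119) or 4 (-0.64, adjusted p = 0.112).

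Among desmosomal genes, DSG2, the desmoglein of simple epithelia, rose, while its partners JUP and DSP did not pass the test. It had 18.6, 23.2, 22.2 and 26.6 CPM in siCTRL and 27.2, 42.2, 39.6 and 40.5 CPM in siAPEX1 libraries, groups that did not overlap. The log2 fold change was 0.73 (SE 0.159, adjusted p = 0.000372). Of all genes tested 15.9% were called higher, and 14% had groups that did not overlap, with siAPEX1 higher. Of the 11 desmosomal genes beside the members only DSG2 and PERP were tested, and PERP, at -0.27 with an adjusted p of 0.0662, did not pass. DSG3, DSG4 and DSC1 had 0 counts in all 8 libraries.

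Tight junction genes beside the members numbered 36, of which 9 were tested, with 2 higher, 1 lower and a median log2 fold change of 0.14. The shares over all genes tested were 15.9% higher and 15.8% lower. CLDN2, a claudin that forms channels for cations and water, showed the highest value, with 7.04, 6.3, 4.63 and 4.43 CPM in siCTRL and 15.6, 12.2, 18 and 18.3 CPM in siAPEX1 libraries. Its log2 fold change of 1.51 (SE 0.254, adjusted p = 7.63e-06) was past both thresholds, with a fold of 1.99 to 4.06 at 95%, and every alternative that tested it left that call in place. The polarity gene PARD6B rose by 0.74 on the log2 scale (adjusted p = 0.0178), a call lost with DESeq2 (adjusted p = 0.2), without a filter (0.12), with library size alone (0.196) and without siAPEX1 library 1 (0.0736).

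TJP3, which encodes the scaffold ZO-3, fell to a log2 fold change of -0.83 (SE 0.253, adjusted p = 0.0104), though not with DESeq2 (adjusted p = 0.125) or without siCTRL library 1 (-0.68, adjusted p = 0.0501). The claudin gene CLDN3 was under the filter, with 7, 4, 7 and 7 counts in siCTRL and 0, 0, 2 and 1 in siAPEX1 libraries. On the CPM scale it was lower in each siAPEX1 library than in any siCTRL library, a pattern that 14.9% of all genes tested showed, at a level where 1 read is worth 0.463 to 0.823 CPM. The share among genes under the filter, such as CLDN3, was not computed. Of the 11 gap junction genes only GJA1, which encodes connexin 43, was tested, and it stood at 40.8 CPM in both groups, a log2 difference of 0.00 (adjusted p = 0.994).

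Regulators of the cadherin exchange were mostly too low to test. Of 11 EMT transcription factors, several of which are known repressors of CDH1, 3 were tested, and 1 of them, TCF3 (the E protein E12/E47), rose by 0.77 on the log2 scale (SE 0.232, adjusted p = 0.00934). Among all genes tested 15.9% were higher. TCF3 had 12.6, 9.69, 13.9 and 11.6 CPM in siCTRL and 29.6, 16.2, 25.2 and 10.3 CPM in siAPEX1 libraries, so library 4 lay within the controls, and the call was lost without siAPEX1 library 1 (0.57, adjusted p = 0.0847), with library size alone (0.43, adjusted p = 0.132) and with DESeq2 (adjusted p = 0.12). ZEB1 (-0.32, adjusted p = 0.434) and TWIST2 (-0.19, adjusted p = 0.512) did not pass, and both were named after their values were seen. SNAI1 was under the filter with 5, 6, 3 and 1 counts in siCTRL and 5, 4, 9 and 5 in siAPEX1 libraries. On the CPM scale these were 2.51, 2.91, 1.39 and 0.553 against 4.12, 3.25, 6.49 and 3.97, so SNAI1 was higher in each siAPEX1 library than in any siCTRL library, as were 14% of all genes tested, although the raw counts overlapped. That share covers only genes past the filter, and none was computed for genes as low as SNAI1. SNAI2, ZEB2 and TWIST1 had at most 11 counts in all 4 libraries of a group, and the remaining factors of the list apart from TCF4 had at most 2.

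Epithelial transcription factors gave 3 tested genes of 12, with FOXA2 higher and ELF3 (-0.15, adjusted p = 0.38) and KLF5 (-0.27, adjusted p = 0.35) not passing. For all genes tested the share called higher was 15.9%. FOXA2, a forkhead factor of airway and gut epithelium, had 6.03, 8.23, 10.7 and 11.1 CPM in siCTRL and 22.2, 21.1, 16.6 and 12.7 CPM in siAPEX1 libraries, without overlap. Groups without overlap, with siAPEX1 higher, were found for 14% of all genes tested. The log2 fold change of FOXA2 was 1.0 (SE 0.234, adjusted p = 0.000832). As for CDH1, siAPEX1 library 4 was the one nearest to the controls. GRHL2 and OVOL2, which sustain epithelial cadherin expression in some epithelia, had 0 counts in all 8 libraries.

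The genes that degrade β-catenin or answer to it were read next to CTNNB1. Of 12 turnover genes 5 were tested, with 0 called in edgeR and 0 in DESeq2, and with 1 higher (GSK3B) and 2 lower (GSK3A, FBXW11) at an unadjusted p of at most 0.05. APC, the scaffold of the destruction complex, stood at 9.6 and 9.66 CPM in the groups, a log2 fold change of -0.01. Among 16 targets of β-catenin and TCF factors 6 were tested, 2 were lower and 0 higher (3 and 0 at an unadjusted p of at most 0.05, the third being BAMBI at -0.63), with a median log2 fold change of -0.35. Over all genes tested 15.8% were lower and 15.9% higher, and the list was not tested as a set. The cyclin D1 gene CCND1 (-0.59, SE 0.152, adjusted p = 0.00232) and the hyaluronan receptor gene CD44 (-0.54, SE 0.111, adjusted p = 0.00018) made up those 2, and DESeq2 gave CCND1 an adjusted p of 0.0526. MYC (0.10, adjusted p = 0.721) and TCF7L2 (0.14, adjusted p = 0.549) did not pass, LEF1 and SP5 were at 0 throughout, and the direct feedback target AXIN2 had 13 and 14 counts in the groups. Both genes that fell also answer to many other pathways.

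Other epithelial markers went the opposite way to CDH1. All 4 cytokeratin genes tested were past both thresholds as lower, from KRT8 at -1.01 (SE 0.138, adjusted p = 1.33e-07) to KRT19 at -2.31 (SE 0.144, adjusted p = 1.82e-16), and EPCAM, under the filter, had 9, 8, 8 and 9 counts in siCTRL and 1, 0, 4 and 5 in siAPEX1 libraries. This list of markers therefore held 1 gene that rose and 4 that fell, against 15.9% and 15.8% of all genes.

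**Figure D5:**
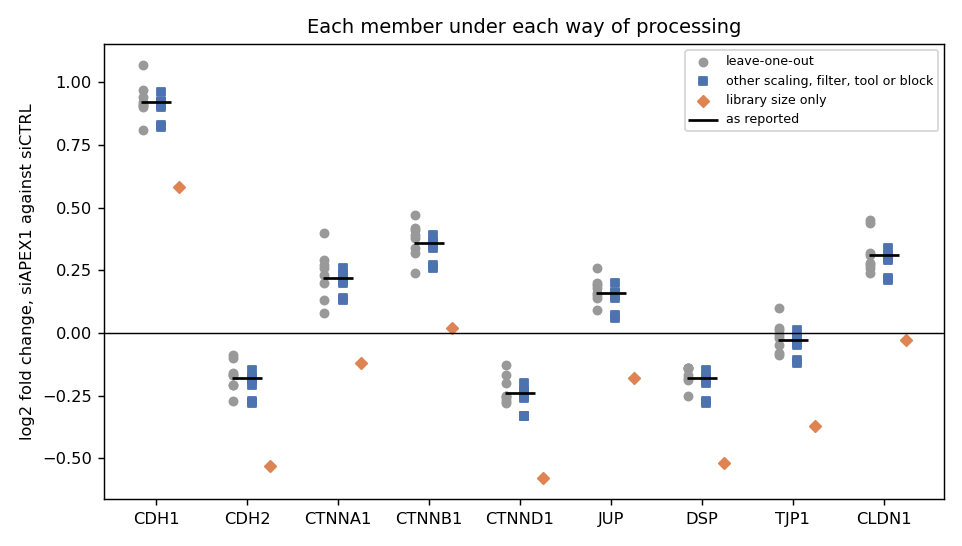
Log2 fold change (vertical axis) of the 9 members tested under each way of processing: as reported (black bar), with 1 library left out (grey), with another scaling, filter, tool or block (blue) and with library size alone (orange). All points of CDH1 lie between 0.58 and 1.07, and the orange points of all 9 genes are the lowest of their gene.

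The gene whose level over the 8 libraries was most like that of DSP, the member with the highest mean CPM, was EPC1, with a Pearson r of 0.958 between log2 CPM values. EIF4B (0.951), AHNAK2 (0.948), SLC38A1 (0.941) and TRIM4 (0.94) came next. These r values describe 8 libraries that differ in size and in label.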

How the data were processed

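Total RNA of A549 cells was made into 8 libraries with a small RNA kit and read on a HiSeq 2500 as single 100-bp reads. Per the methods of the study, the authors trimmed reads with cutadapt, aligned them to GRCh38 with STAR 2.5.3a and counted them per Ensembl gene with its GeneCounts function. The deposited values are these counts, whole numbers without normalization, and the annotation release and the strand setting are not given in the sources used here. Groups and replicate numbers came from the sample titles. Identifiers were matched to GENCODE 44, which held 57532 of 58302, and the other 770 had no symbol here. Genes passing filterByExpr (minimum count 10, minimum total 15) were tested with edgeR 4.0.16 (R 4.3.3), with TMM factors of 1.1 to 1.14 in siCTRL and 0.873 to 0.919 in siAPEX1 libraries, a quasi-likelihood fit of all 8 libraries, 2 groups, no covariate and Benjamini-Hochberg adjustment. The common biological coefficient of variation was 0.0832. DESeq2 1.42.0, other scalings, other filters, each library left out and the replicate number as a block were alternatives. The scripts were tested on simulated data. No 2 replicates agreed within sampling noise (chi-square per degree of freedom from 1.67 to 2.97).

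The text names all 10 members, APEX1, up to 4 highest and 4 lowest called genes of each list, list genes at or near 0, and the 5 genes most correlated with the member of highest mean CPM. Other list genes named without a call were chosen after their values were seen. Members and lists were chosen with earlier results of these data known. Intervals are at 95%.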

Additional observations from a re-analysis of the deposited data

Results flagged for a closer look

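Of 24 groups of 4 libraries examined, 1 held a library that stood apart from the rest of its group. CLDN1 was at 16.7 CPM in siCTRL library 3, against 12.6 CPM in the nearest and 12.1 CPM in the lowest of the other control libraries. By chance about 5% of such groups would be marked in this way.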

How the results depend on the processing

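CDH1 stayed higher and past the test in all 17 alternatives. With library size alone, the genes called were 340 higher and 1945 lower (84 and 655 past both thresholds), with 14.9% of calls higher against 50.3% in the fit reported; DESeq2 called 455 and 447. Past both thresholds, no filter gave 295 higher and 648 lower (38.4% of all calls higher), at least 10 counts in every library gave 81 and 100, and a log2 threshold of 0.75 gave 404 and 531. Members called lower were 3 with library size alone and 1 (CTNND1) with at least 10 counts in every library; members past both thresholds were 1 (CDH1) at a threshold of 0.75 and 0 to 1 with a library left out, 1 being without siAPEX1 library 4. The adherens median was -0.12 with library size alone and 0.08 to 0.38 with a library left out (0.08 without siAPEX1 library 4). The tight junction and desmosome median was -0.28 with library size alone, -0.05 with DESeq2, -0.12 without a filter, -0.02 with at least 10 counts, -0.03 with JUP moved, and 0.03 to 0.18 with a library left out. Signs turned for CTNNA1 (-0.12), JUP (-0.18) and CLDN1 (-0.03) with library size alone, which leaves out the TMM factors by construction, and for TJP1 with TMM from protein-coding genes (0.01) and without siCTRL library 2 (0.02), siCTRL library 4 (0.01) or siAPEX1 library 4 (0.1), its range with a library left out being -0.09 to 0.1. The cause of the other shifts was not tested.

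The replicate numbers did not pair the libraries: deviations of same-numbered libraries correlated at -0.027, -0.037, -0.014 and -0.003. With the number as a replicate block CDH1 had a log2 fold change of 0.92 and an adjusted p of 0.00091, with 1 member higher and 0 lower. Depth limits every value here: members had 1 to 119 counts per library, and intervals cover the spread between libraries only.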
